A study of Mus musculus with 10 samples.

Results

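AII amacrine cells were selected from a single-cell survey of mouse retina by a gate on 5 genes, and they numbered 957 of 32523 cells (2.94%). A cell entered the gate with at least 2 unique molecular identifiers (UMIs, each counting 1 captured RNA molecule) of Gjd2, at least 1 of Prox1, at least 1 of Slc6a9, and none of Gad1 or Gad2. Gjd2 encodes connexin 36, Prox1 a homeobox transcription factor, Slc6a9 the glycine transporter GlyT1, and Gad1 and Gad2 the enzymes that make GABA. The comparison set held 3118 other Slc6a9 cells, with at least 2 UMIs of Slc6a9 and none of Gad1, Gad2 or Gjd2. These are a mixture of glycinergic amacrine types, so each level in them is an average over types.

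The survey profiled amacrine cells at postnatal day 19 in 10 libraries, which the labels place in batch 3 (4 libraries), batch 2 (5 libraries) and batch 1 (1 library). All mice were of the Chx10-cre-GFP strain, in which the Chx10 gene, active in retinal progenitors and bipolar cells, drives the transgene, and none was given a treatment that the labels name. Dissociated cells were sorted for absence of GFP, of CD133 and of CD73 and for uptake of the viability dye Calcein Blue, a sort that depletes bipolar cells and photoreceptors, and libraries were made with the 10x Genomics 3′ v2 chemistry. The labels do not tie libraries to animals, so the p-values here rest on how far libraries varied, and that variation can be technical.

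AII cells are the narrow-field, glycinergic amacrine cells of the rod pathway. They receive glutamate from rod bipolar cells, pass the signal through connexin 36 gap junctions to ON cone bipolar cells and to each other, and release glycine onto OFF bipolar and ganglion cells. Dopamine is known to lower their coupling, and they are known to generate small sodium spikes.

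Libraries held 6302659 to 26028492 UMIs, and the AII cells together 4609479. The other Slc6a9 cells together held 10374228, so UMI numbers of the sets, where given below, do not compare directly. Every library contributed, with 32 to 134 AII cells. AII cells had a median of 4736 UMIs, against 3314 in other Slc6a9 cells, and a rule that asks for 2 UMIs of Gjd2 itself favours deeper cells. Barcodes were shared between libraries by 1860 cells, of which 31 were AII cells. Without the shared barcodes the comparison between the sets gave 1942 genes higher and 2035 lower, against 2023 and 2024 with them. Among marker lists of other retinal classes, rod genes summed to 75.4 to 145 UMIs per 1000000 UMIs of the set (CPM) in AII cells, against 117 to 200 CPM in other Slc6a9 cells. For bipolar genes the sums were 66.3 to 279.7 CPM in AII cells and 269 to 537 CPM in other Slc6a9 cells, and for ganglion cell genes 111 to 249 CPM and 303 to 768 CPM. A list of 9 markers of other glycinergic types summed to 1364 to 1677 CPM in AII cells and 2023 to 2401 CPM in other Slc6a9 cells. Most of this was Lamp5, with pooled levels of 1246 CPM in AII cells and 1501 CPM in other Slc6a9 cells. Ppp1r17 was also close between the sets, with 195 and 228 CPM, while Prom1 had 69.6 and 262 CPM. Of 6 microglia genes, 5 had no UMI in AII cells. The horizontal cell list summed higher in AII cells (891 to 1233 CPM) than in other Slc6a9 cells (154 to 255 CPM). Calb1, also an AII marker, had pooled levels of 857 CPM in AII cells and 136 CPM in other Slc6a9 cells. Sept4 had 195 and 91.3 CPM and Onecut1 6.94 and 1.06 CPM. Onecut2 (5.64 and 11.7 CPM) and Lhx1 (1.08 and 1.25 CPM) went the other way, lower in AII cells. Of the 5 endothelium genes Cdh5 and Tie1 were at 0 in both sets while Kdr stood at 98.7 ± 19.0 CPM in AII cells and 34.0 ± 12.1 CPM in other Slc6a9 cells (SD, n = 10 libraries each). The part of these classes in the results was not tested.

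The promoters of 3 genes are shown because the results turn on them: Gjd2 sets the gate, and Drd4 and Sct, which lie next to each other in the genome, were among the genes that rose most in AII cells. Each runs from 250 bases before to 50 bases after the RefSeq start site on GRCm38.p6 and reads along the gene's strand. Capitals mark matches, searched on both strands, to the Sp1-type GC box (GGGCGG), the TATA box (TATAAA) and an E-box of the NeuroD kind (CAGATG).
Gjd2, chr2:114013570-114013869, minus strand: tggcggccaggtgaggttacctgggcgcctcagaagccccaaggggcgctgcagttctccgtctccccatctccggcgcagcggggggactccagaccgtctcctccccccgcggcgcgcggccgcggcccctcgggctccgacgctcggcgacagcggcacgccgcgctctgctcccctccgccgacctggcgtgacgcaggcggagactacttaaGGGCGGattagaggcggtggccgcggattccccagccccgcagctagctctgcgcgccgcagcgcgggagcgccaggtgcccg
Drd4, chr7:141291768-141292067, plus strand: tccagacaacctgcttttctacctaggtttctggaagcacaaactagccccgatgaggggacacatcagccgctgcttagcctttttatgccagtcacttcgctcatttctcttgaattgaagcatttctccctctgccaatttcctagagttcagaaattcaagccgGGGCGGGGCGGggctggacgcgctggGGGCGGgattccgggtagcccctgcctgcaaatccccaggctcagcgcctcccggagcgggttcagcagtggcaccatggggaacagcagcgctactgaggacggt
Sct, chr7:141279084-141279383, minus strand: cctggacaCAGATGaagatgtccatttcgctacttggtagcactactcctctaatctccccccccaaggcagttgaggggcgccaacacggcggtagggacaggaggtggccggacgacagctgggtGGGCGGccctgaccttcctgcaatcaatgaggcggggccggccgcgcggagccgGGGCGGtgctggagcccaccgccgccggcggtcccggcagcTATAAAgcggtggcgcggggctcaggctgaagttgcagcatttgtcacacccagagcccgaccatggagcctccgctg
The Gjd2 window held 1 GC box, the Drd4 window 3, of which 2 overlap by 1 base, and the Sct window 2, while 35.7% of 32851 promoters of this length hold at least 1. A TATA box stood in the Sct window alone among these 3, and in 13.6% of all promoters. The E-box stood in the Sct window and in 17.2% of all promoters. Also searched, on both strands, were the cAMP response element (TGACGTCA, in 1.79% of all promoters), the palindrome of nuclear factor I (0.0365%) and that of Ebf factors (0.904%), and none of the 3 windows held a match.

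The 4 AII markers that the gate did not use were compared with the label first. By the gate's own construction, Gjd2 stood at 941 CPM in the lowest AII library, 1042 in the median and 1168 in the highest, and at 0 in other Slc6a9 cells, and Prox1 averaged 517 ± 53.6 CPM in AII cells and 171 ± 26.9 CPM in other Slc6a9 cells (SD, n = 10 libraries each). Slc6a9 averaged 1347 ± 139.9 CPM in AII cells and 1545 ± 444 CPM in other Slc6a9 cells. These 3 values describe the gate and were not tested.

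Drd4, the D4 dopamine receptor (chromosome 7, 141292006 to 141296464, plus strand), rose in AII cells more than the other markers. Its lowest, median and highest library levels were 285, 327 and 421 CPM in AII cells, against 3.13, 11.2 and 26.5 CPM in other Slc6a9 cells. The sets did not overlap in any library, and the log2 difference was 4.93 ± 0.15 (SE; edgeR quasi-likelihood test with library as a block, Benjamini-Hochberg adjusted p = 1.14e-25). Calb1, the calcium buffer calbindin (chromosome 4), ran through 688, 805 and 1018 CPM in AII cells, against 52.8, 136 and 152 CPM in other Slc6a9 cells, again without overlap (log2 2.79 ± 0.07, adjusted p = 1.57e-28 by edgeR). Nfia, a nuclear factor I transcription factor (chromosome 4), ran through 276, 322 and 516 CPM in AII cells, against 27.2, 53.6 and 123 CPM in other Slc6a9 cells (log2 2.74 ± 0.12, adjusted p = 2.83e-21 by edgeR). All 3 rose in each of the 10 libraries.

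Dab1, the adaptor of reelin signalling, did not separate the sets in this way. It ran through 193, 230 and 342 CPM in AII cells, against 140, 166 and 235 CPM in other Slc6a9 cells, and was higher in AII cells in 6 of 10 libraries (log2 0.43 ± 0.09, adjusted p = 8.12e-05 by edgeR). The log2 difference was 0.05 within batch 3, where it was not called (adjusted p = 0.638 by edgeR), and 0.67 within batch 2. Plain CPM, which lack the scaling of the fitted differences, had the opposite sign in batch 3. Dab1 averaged 214 CPM in AII cells there and 222 CPM in other Slc6a9 cells. In every library of batch 3 it was lower in AII cells, if only slightly. Within the batches Drd4 differed by log2 5.74 in batch 3 and 4.11 in batch 2, Calb1 by 2.82 and 2.64, and Nfia by 3.34 and 2.26. In cells of 3000 to 8000 UMIs alone, Nfia differed by log2 3.41.

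**Figure D1:**
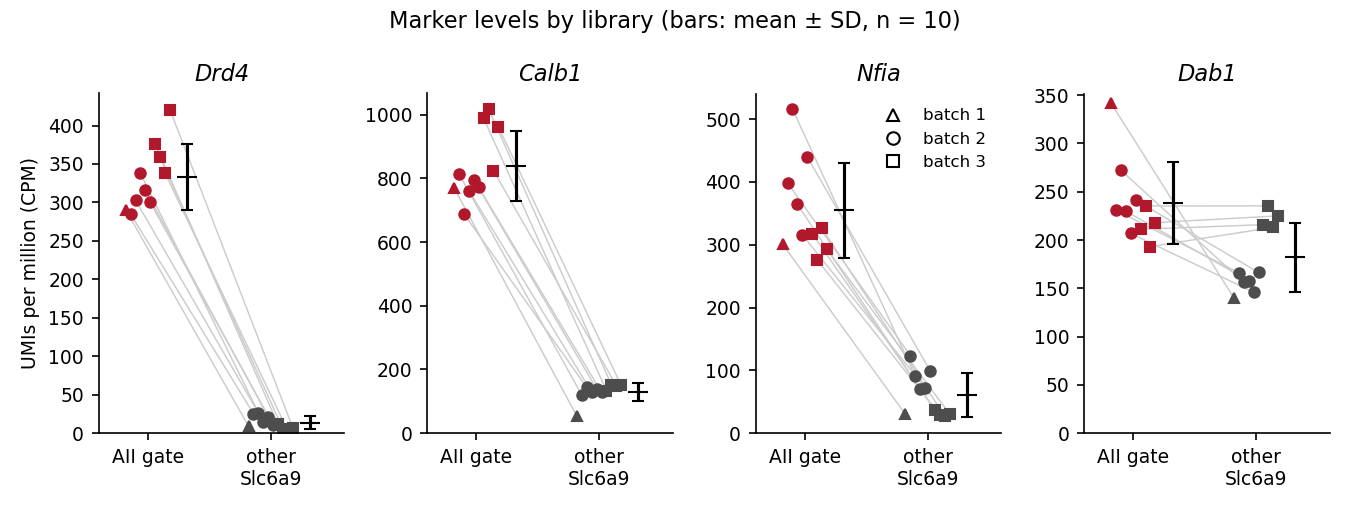
Levels of the 4 AII markers outside the gate, in CPM, for each of 10 libraries in AII gate cells (left of each panel) and other Slc6a9 cells (right); lines join the sets of a library, symbols give the batch and bars the mean ± SD. Drd4, Calb1 and Nfia have no overlap between the sets, while Dab1 runs from 193 to 342 CPM in AII cells and from 140 to 235 CPM in other Slc6a9 cells.

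Because shares of cells with a UMI depend on depth, each cell was thinned to 2000 UMIs, which left out 46 AII cells, 698 other Slc6a9 cells and 2094 of the Gad cells (at least 2 UMIs of Gad1 plus Gad2 and none of Slc6a9) used as background. Drd4 then had a UMI in 49.8% ± 6.74 of AII cells, 1.92% ± 1.88 of other Slc6a9 cells and 0.925% ± 0.338 of Gad cells (SD, n = 10 libraries). Before thinning these were 77.2%, 2.98% and 2.68%, at median depths of 4736, 3314 and 5411 UMIs. Calb1 was found in 75.4% ± 6.02 of thinned AII cells, 18.5% ± 3.93 of other Slc6a9 cells and 12.4% ± 2.18 of Gad cells, and Nfia in 49.2% ± 8.44, 8.21% ± 3.48 and 6.58% ± 1.85. Dab1 was found in 37.0% ± 7.12 of AII cells, 29.98% ± 5.67 of other Slc6a9 cells and 5.22% ± 0.944 of Gad cells, so it was common in glycinergic cells of both sets.

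The gate has a threshold at 2 UMIs of Gjd2. The 144 cells just inside it (exactly 2 UMIs) had pooled levels of 352 CPM Drd4, 735 CPM Calb1, 487 CPM Nfia and 216 CPM Dab1. The 184 cells just outside (1 UMI, other criteria met) had 213 CPM Drd4, 503 CPM Calb1, 308 CPM Nfia and 166 CPM Dab1. Cells just outside the threshold therefore lay between AII cells and other Slc6a9 cells in Drd4, Calb1 and Nfia.

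Across all genes the sets differed widely. Of 8855 genes tested, 45.7% passed an adjusted p of 0.05 in edgeR, 22.8% of them higher and 22.9% lower in AII cells as shares of the genes tested. At least 2-fold differences were seen in 4.58% of genes upward and 9.73% downward. In 13.4% of genes the 10 libraries of the sets did not overlap. The counts of genes in the lists below are read against these shares.

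**Figure D2:**
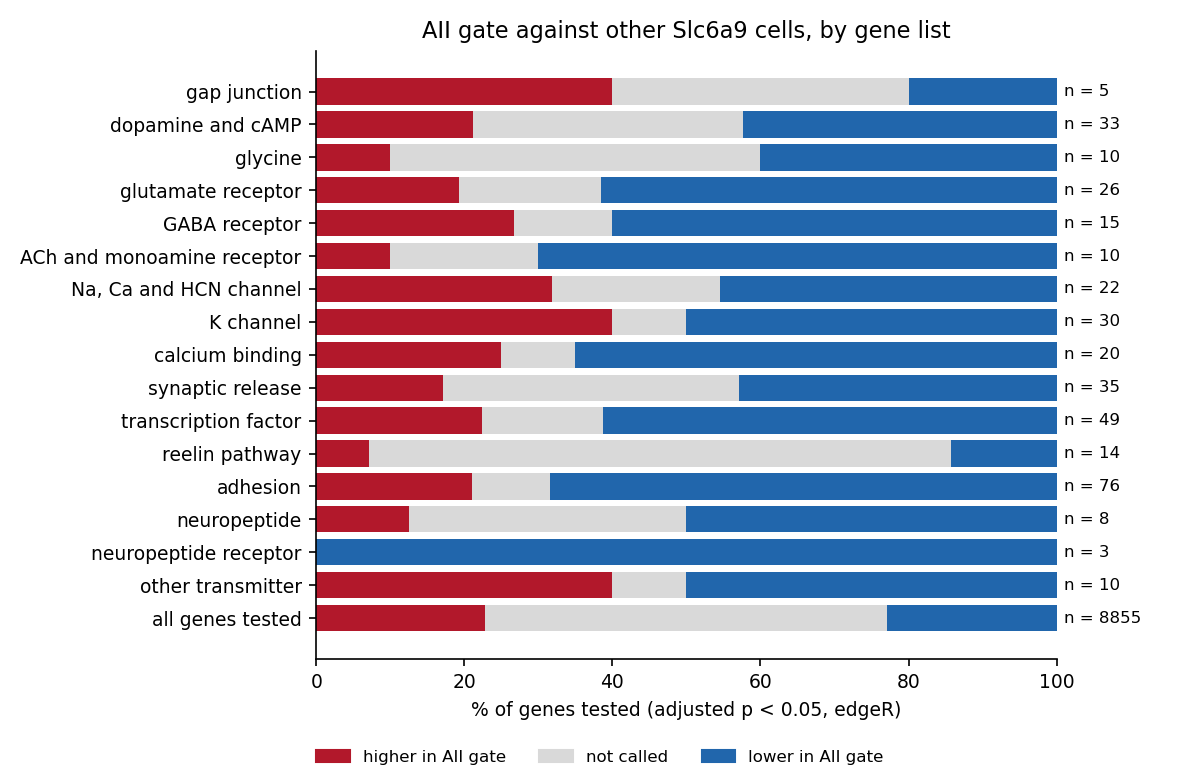
Share of the tested genes of each list that were higher in AII gate cells (red), not called (grey) or lower (blue), in percent, with the number of genes tested at the right; all genes tested are the bottom row. The share lower in AII cells lay above the 22.9% of all genes tested in every list drawn except gap junction and reelin genes.

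Genes of electrical coupling were tested apart from Gjd2 itself. Of 14 other genes on the list, which holds connexins, pannexins and scaffold partners of connexin 36, 5 passed the filter on low counts; 2 rose, 1 fell and 2 were not called. Gjc1, connexin 45, which is known to pair with connexin 36 in retinal gap junctions, averaged 21.9 ± 7.68 CPM in AII cells and 10.7 ± 7.29 CPM in other Slc6a9 cells, higher in 9 of 10 libraries (log2 1.10 ± 0.24, adjusted p = 2.71e-04 by edgeR). Tjp1, the scaffold protein ZO-1, averaged 38.3 ± 9.97 CPM in AII cells and 27.6 ± 9.68 CPM in other Slc6a9 cells (log2 0.64 ± 0.15, adjusted p = 3.64e-04 by edgeR), a call that was lost in batch 2 alone (log2 0.45, adjusted p = 0.0597 by edgeR).

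Panx1, which forms single-membrane pannexin channels, went the other way. It had 17 UMIs in all AII cells, with 3.64 ± 2.68 CPM, against 22.5 ± 6.20 CPM in other Slc6a9 cells, and the sets did not overlap (log2 -2.43 ± 0.30, adjusted p = 1.36e-08 by edgeR). Panx2 averaged 18.5 ± 5.19 CPM in AII cells and 14.3 ± 3.11 CPM in other Slc6a9 cells and missed the threshold (adjusted p = 0.0518 by edgeR). Sgsm3 averaged 48.0 ± 32.8 CPM in AII cells and 43.6 ± 20.8 CPM in other Slc6a9 cells (adjusted p = 0.0658 by edgeR), and its level differed between batches in both sets.

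Dopamine receptors and the cAMP machinery behind them came next. Of 33 genes tested on the dopamine and cAMP list, 7 rose, 14 fell and 12 were not called, and the median log2 difference was -0.12, against 0.00 for all genes tested. Beside Drd4, which signals through inhibitory G proteins, Drd1, the stimulatory D1 receptor, fell to 3.24 ± 4.36 CPM in AII cells, against 22.7 ± 4.94 CPM in other Slc6a9 cells, and had no UMI in 4 of 10 AII libraries (log2 -2.75 ± 0.35, adjusted p = 2.91e-08 by edgeR). Drd2 had 10 UMIs in AII cells and 3 in other Slc6a9 cells, Drd5 had 9 and 36, and Drd3 had none in either set, all below the filter. The upper limit that a count of 0 allows over all AII cells is 0.651 CPM, for counting error only.

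Among cyclic nucleotide enzymes, Adcy5, an adenylyl cyclase inhibited by such G proteins, rose to 72.4 ± 19.0 CPM in AII cells, against 12.8 ± 3.97 CPM in other Slc6a9 cells. Gnaz, an inhibitory G protein alpha subunit, rose as well (121 ± 16.2 CPM in AII cells, 50.6 ± 7.16 CPM in other Slc6a9 cells), while Gnao1, Gnai1 and Gnai2 fell. Prkaca, the catalytic subunit of protein kinase A, averaged 444 ± 47.2 CPM in AII cells and 327 ± 30.5 CPM in other Slc6a9 cells (log2 0.54 ± 0.05), while the regulatory subunits Prkar1a and Prkar1b fell by 0.55 and 1.49 on the log2 scale. Among the list's larger falls were 3 genes that encode phosphodiesterases, which break down cyclic nucleotides. Pde1a stood at 0.702 ± 1.26 CPM in AII cells and 22.5 ± 11.9 CPM in other Slc6a9 cells, Pde4b at 5.95 ± 4.05 and 68.4 ± 9.95 CPM, and Pde1c at 9.24 ± 5.64 and 94.8 ± 34.5 CPM.

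Of 10 glycine genes tested, 1 rose, 4 fell and 5 were not called, so 50% were called, near the 45.7% of all genes tested. The gene that rose was Slc6a5, the neuronal glycine transporter GlyT2 (chromosome 7, plus strand), known from glycine neurons of spinal cord and brainstem. It ran through 41.1, 71.9 and 87.6 CPM in AII libraries, against 6.97, 12.6 and 23 CPM in other Slc6a9 cells. All AII libraries lay above all others (log2 2.39 ± 0.15, adjusted p = 1.43e-16 by edgeR). The vesicular transporter Slc32a1, which loads glycine and GABA into vesicles, averaged 527 ± 39.9 CPM in AII cells and 652 ± 96.2 CPM in other Slc6a9 cells (log2 -0.21 ± 0.05).

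Of the glycine receptor subunits, Glra2 and Glra3 fell, Glrb was not called, and Glra1 and Glra4 did not pass the filter. Glra2 fell to 14.4 ± 3.73 CPM in AII cells, against 160.1 ± 59.8 CPM in other Slc6a9 cells (log2 -3.38 ± 0.14, adjusted p = 2.35e-21 by edgeR), and Glra3 to 12.9 ± 6.93 CPM, against 68.1 ± 30.5 CPM. Their scaffold gephyrin, Gphn, fell by 0.39 on the log2 scale, a call lost in batch 3 alone (log2 -0.24, adjusted p = 0.127 by edgeR).

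Glutamate receptor genes divided by subunit. Of 26 tested, 5 rose, 16 fell and 5 were not called, with a median log2 difference of -0.82. The AMPA subunit Gria3 rose to 242 ± 38.6 CPM in AII cells, against 137 ± 22.1 CPM in other Slc6a9 cells (log2 0.93 ± 0.07), and the auxiliary genes Cacng5 and Shisa6 rose by 1.84 and 1.88 on the log2 scale. Gria1 and Gria2 fell, Gria1 to 7.75 ± 8.05 CPM in AII cells, against 84.7 ± 21.7 CPM in other Slc6a9 cells.

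NMDA subunits split in a comparable way. Grin1, the obligatory subunit, averaged 141 ± 25.7 CPM in AII cells and 88.0 ± 14.5 CPM in other Slc6a9 cells (log2 0.79 ± 0.08). Its glutamate-binding partners fell: Grin2b stood at 7.38 ± 8.61 CPM in AII cells and 98.2 ± 29.4 CPM in other Slc6a9 cells, and Grin2a at 4.66 ± 3.66 and 46.9 ± 26.0 CPM. The metabotropic receptor genes Grm8, Grm7 and Grm4 fell too, Grm8 to 4.89 ± 2.73 CPM in AII cells, against 68.1 ± 7.92 CPM. The auxiliary genes Shisa9 and Gsg1l had 14 and 7 UMIs in all AII cells, against 494 and 199 in other Slc6a9 cells (log2 -3.87 and -3.49).

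Receptors for GABA showed the same kind of split. Of 15 genes tested, 4 rose, 9 fell and 2 were not called, with a median log2 difference of -0.73, which is the same when Gabrg1 is set to its bound. Gabrd, the delta subunit of extrasynaptic receptors, rose to 43.9 ± 9.0 CPM in AII cells, against 6.11 ± 3.15 CPM in other Slc6a9 cells (log2 3.01 ± 0.21). Gabra3 and Gabrg3 rose to 75.5 ± 15.2 and 136 ± 19.0 CPM in AII cells, against 40.3 ± 9.76 and 68.5 ± 25.4 CPM. The rho subunit Gabrr1 rose by 1.64 on the log2 scale.

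Gabrg1 had no UMI in any AII library, against 140 UMIs in other Slc6a9 cells, which makes it at least 20.7-fold lower in AII cells with a floor of 3 counts over the set. Gabrb2 and Gabra4 fell by 3.79 and 3.27 on the log2 scale.

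Receptor genes for acetylcholine, monoamines and similar ligands often lay below the filter on low counts, which 10 of 33 passed. Of these 10, 1 rose, 7 fell and 2 were not called, with a median log2 difference of -2.26. The gene that rose was Adrb1, the beta-1 adrenergic receptor, which ran through 112, 173 and 227 CPM in AII libraries, against 10.4, 19.3 and 26.3 CPM in other Slc6a9 cells, with no overlap (log2 3.43 ± 0.11, adjusted p = 3.01e-24 by edgeR). Chrm2, the muscarinic M2 receptor, fell to 2.50 ± 3.33 CPM in AII cells, against 44.3 ± 16.5 CPM, and the nicotinic subunit Chrna3 to 1.41 ± 1.59 CPM, against 29.5 ± 12.6 CPM. Chrna2 had 3 UMIs in AII cells and 309 in other Slc6a9 cells, a ratio of 0.0219 (exact 95% interval 0.00448 to 0.0645, counting error only).

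Voltage-gated sodium channel genes held a clear opposition within the family. Of 22 sodium, calcium and HCN channel genes tested, 7 rose, 10 fell and 5 were not called. Scn1a, the pore of Nav1.1, ran through 239, 285 and 408 CPM in AII libraries, against 25.1, 46.8 and 72.4 CPM in other Slc6a9 cells, with no overlap (log2 2.79 ± 0.09, adjusted p = 3.52e-24 by edgeR).

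The other sodium channel pores did not follow. Scn2a1 and Scn3a fell by 0.55 and 0.81 on the log2 scale. Scn9a had 5 UMIs in AII cells against 111 in other Slc6a9 cells (log2 -3.14). Scn8a was not called (32.6 ± 12.5 CPM in AII cells, 32 ± 8.32 CPM in other Slc6a9 cells, adjusted p = 0.317 by edgeR). The beta-3 subunit Scn3b fell by 2.16. Among calcium channels, Cacna1h, a T-type pore, rose to 53.5 ± 13.3 CPM in AII cells, against 12 ± 3.6 CPM. The T-type pore Cacna1i had 7 UMIs in AII cells against 153 (log2 -3.16). The auxiliary subunit Cacna2d3 fell to 9.20 ± 3.21 CPM, against 93.6 ± 19.7 CPM.

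Potassium channel genes moved in both directions. Of 30 tested, 12 rose, 15 fell and 3 were not called. Kcnma1, the large-conductance calcium-activated channel, ran through 419, 545 and 609 CPM in AII libraries, against 55.2, 74.0 and 121 CPM in other Slc6a9 cells (log2 2.82 ± 0.07, adjusted p = 4.53e-28 by edgeR). Kcnh1, an ether-a-go-go channel, rose to 151 ± 19.9 CPM in AII cells, against 18.2 ± 8.49 CPM, and Kcnq3, a subunit of the M current, to 39.6 ± 12.2 CPM, against 4.52 ± 2.37 CPM. The related Kcnh2 and Kcnh7 rose by 1.55 and 0.90 on the log2 scale.

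Delayed-rectifier and A-type genes were among those that fell. Kcnb2 averaged 3.71 ± 2.15 CPM in AII cells and 50.5 ± 20.2 CPM in other Slc6a9 cells, and Kcnip4, a modulator of A-type channels, 16.0 ± 8.22 and 166 ± 36.4 CPM. Kcnmb4, an auxiliary subunit of the Kcnma1 channel, fell by 1.92 on the log2 scale, opposite to Kcnma1. The Kcna1, Kcna2 and Kcna6 pores fell by 1.69, 1.46 and 1.39.

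**Figure D3:**
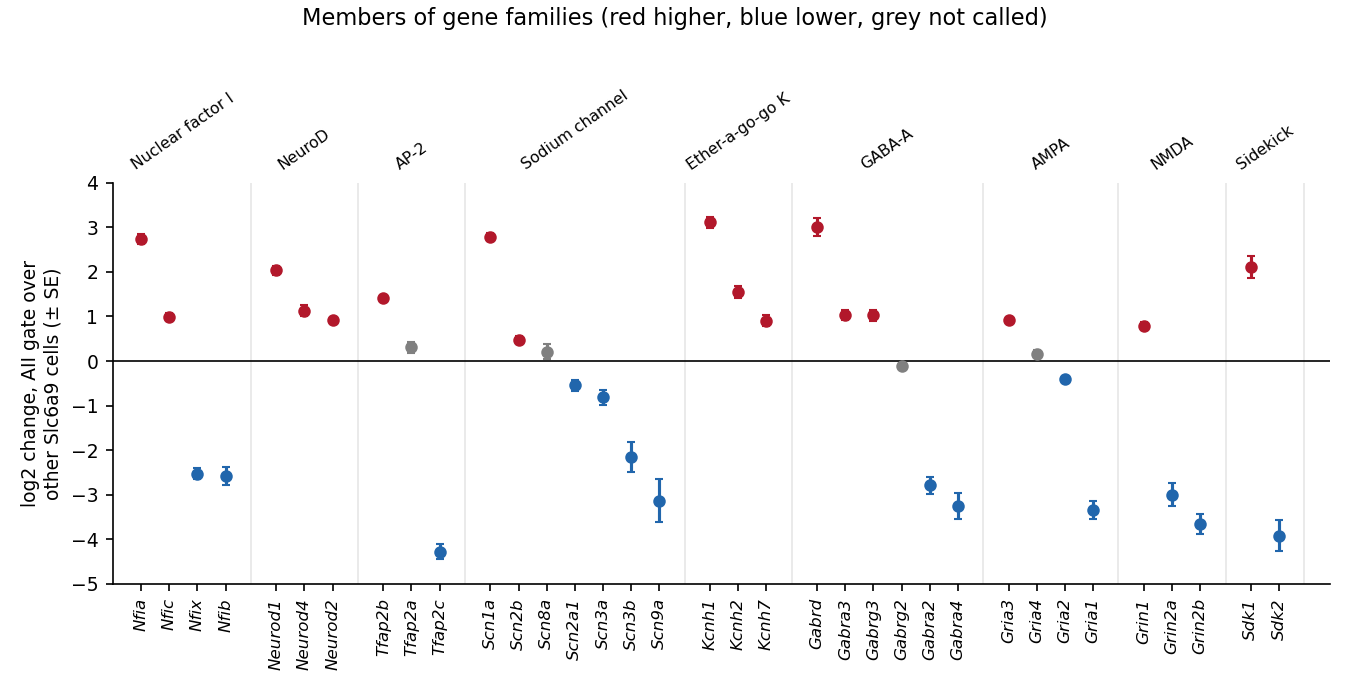
Log2 difference of members of gene families, AII gate over other Slc6a9 cells, with SE bars; red was called higher, blue lower and grey not called (edgeR). Members point in opposite directions in several families, for example Scn1a at 2.79 and Scn9a at -3.14, or Nfia at 2.74 and Nfib at -2.59; the families drawn were chosen after their values were seen.

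Genes of calcium-binding proteins followed, with Calb1 among them. Of 20 tested, 5 rose, 13 fell and 2 were not called. Calm2 and Calm3, which encode the same protein, fell by 0.79 and 0.42 on the log2 scale, Calm2 to 1575 ± 117 CPM in AII cells, against 2951 ± 283 CPM in other Slc6a9 cells, and reads of such near-identical genes could be split between them in counting.

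Hpca, the neuronal calcium sensor hippocalcin, fell to 37.8 ± 9.52 CPM in AII cells, against 401 ± 144 CPM in other Slc6a9 cells (log2 -3.30 ± 0.11, adjusted p = 2.21e-24 by edgeR). Its relative Hpcal1 fell by 3.30 as well, and Ncald rose by 1.64. Necab2 and Necab3 fell to 3.16 ± 3.63 and 8.19 ± 4.18 CPM in AII cells, against 55 ± 36.2 and 80.0 ± 59.2 CPM. Calb2, calretinin, rose by 0.46 on average but was higher in only 7 of 10 libraries.

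Of 35 genes of synaptic release tested, 6 rose, 15 fell and 14 were not called, a share of rises near the 22.8% of all genes tested. Cplx3, the complexin of ribbon synapses and of AII cells, ran through 3473, 3731 and 4230 CPM in AII libraries, against 1136, 1405 and 3532 CPM in other Slc6a9 cells, so the sets overlapped (log2 1.07 ± 0.11, adjusted p = 2.36e-10 by edgeR). Rims3, an active zone protein, fell to 3.10 ± 2.96 CPM in AII cells, against 40.4 ± 14.5 CPM, and Syt13 to 11.4 ± 8.01 CPM, against 125 ± 23.3 CPM. Syt9 and Unc13c fell by 3.03 and 2.57 on the log2 scale.

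Most transcription factor genes that were called fell. Of 49 tested, 11 rose, 30 fell and 8 were not called, with a median log2 difference of -0.54. Ebf1, an early B-cell factor found in glycinergic amacrine cells, ran through 15.3, 42.1 and 91.8 CPM in AII libraries, against 674, 852 and 1051 CPM in other Slc6a9 cells (log2 -4.19 ± 0.10, adjusted p = 4.18e-29 by edgeR). Ebf3 fell to 5.79 ± 3.72 CPM in AII cells, against 75.9 ± 40.7 CPM, and Lhx2, a LIM homeobox factor, to 2.05 ± 2.68 CPM, against 39.8 ± 17.8 CPM.

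Related factors moved apart here too. Tfap2b, an AP-2 factor, ran through 1467, 1509 and 1688 CPM in AII libraries, against 474, 621 and 989 CPM in other Slc6a9 cells (log2 1.42 ± 0.07, adjusted p = 1.47e-19 by edgeR). Tfap2c stood at 6.48 ± 7.12 CPM in AII cells and 152 ± 114 CPM in other Slc6a9 cells (log2 -4.28 ± 0.17). Nfic rose by 0.99 beside Nfia, while Nfib and Nfix fell by 2.59 and 2.53. The bHLH genes Neurod1, Neurod4 and Neurod2 rose together, Neurod1 to 195 ± 29.5 CPM in AII cells, against 53.8 ± 13.9 CPM. Pax6, a factor of amacrine cells at large, fell to 648 ± 55.5 CPM in AII cells, against 1210.3 ± 55.8 CPM.

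Dab1 was the only gene to rise among those tested of the reelin pathway, which guides neuron positioning. Of 14 tested, 1 rose, 2 fell and 11 were not called, a called share of 21.4%. The reelin receptor Vldlr fell to 9.27 ± 5.2 CPM in AII cells, against 42.9 ± 13.3 CPM in other Slc6a9 cells, and Fyn, the kinase that acts on Dab1, to 16.5 ± 5.32 CPM, against 60.5 ± 13.8 CPM. Reln itself was not called (6.62 ± 4.76 CPM in AII cells, 12.8 ± 6.89 CPM in other Slc6a9 cells).

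Cell adhesion and guidance genes were mostly lower. Of 76 tested, 16 rose, 52 fell and 8 were not called, 44 of the falls by at least 2-fold, and the median log2 difference was -1.43. Lrrtm1, a postsynaptic leucine-rich adhesion protein, fell to 2.59 ± 2.68 CPM in AII cells, against 83.1 ± 24.1 CPM in other Slc6a9 cells, Lrrtm4 to 1.67 ± 2.23 CPM, against 22.9 ± 5.31 CPM, and neurotrimin, Ntm, to 16.2 ± 8.53 CPM, against 260.4 ± 76.6 CPM. The immunoglobulin protein Sdk1, a sidekick of retinal lamination, rose to 36.9 ± 10.9 CPM in AII cells, against 7.44 ± 4.24 CPM, while Sdk2 fell to 1.44 ± 2.04 CPM, against 30.4 ± 10.1 CPM. The ephrin receptors Epha4 and Epha7 rose by 2.34 and 2.13 on the log2 scale, and Epha5 fell by 2.63.

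Among the neuropeptide genes tested, Sct alone rose. Of 8 tested, 1 rose, 4 fell and 3 were not called. Sct, which encodes the hormone and peptide secretin (chromosome 7, 141278330 to 141279133, minus strand), ran through 148, 202 and 251 CPM in AII libraries, against 0, 6.20 and 13.1 CPM in other Slc6a9 cells, with no overlap (log2 5.11 ± 0.14, adjusted p = 4.93e-27 by edgeR). In batch 3 alone the difference was log2 5.39, in batch 2 alone 4.65, and in cells of 3000 to 8000 UMIs 5.72. Penk fell to 5.35 ± 6.10 CPM in AII cells, against 49.7 ± 14.7 CPM, and Cartpt to 77.8 ± 18.9 CPM, against 637 ± 502 CPM. Of the peptide receptors 3 were tested and all fell: Vipr2, Crhr1 and Rxfp3, the last with 2 UMIs in AII cells against 361 (ratio 0.0125, exact 95% interval 0.00150 to 0.0454).

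Sct and Drd4 are neighbours. They point away from each other on chromosome 7, 12872 bases lie between them, and the annotation (GENCODE M21, GRCm38) places no gene there. Within 100000 bases on either side 9 protein-coding genes were tested, of which 6 rose and none fell. These counts include Sct and Drd4, which set the window, and 22.8% of all genes tested rose. The nearest tested neighbour on the Sct side, Irf7, an interferon regulatory factor, had 53 UMIs in AII cells and 9 in other Slc6a9 cells (log2 3.51 ± 0.46, adjusted p = 3.68e-08 by edgeR). Deaf1, next to Drd4 on the other side, was not called (log2 0.27 ± 0.12, adjusted p = 0.0553 by edgeR). Tmem80, Taldo1 and Hras rose by 0.61, 0.46 and 0.25 on the log2 scale, and Phrf1 and Rassf7 were not called. This neighbourhood was examined after the values of Sct and Drd4 had been seen, and whether reads were counted by strand is not given in the sources used here.

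**Figure D4:**
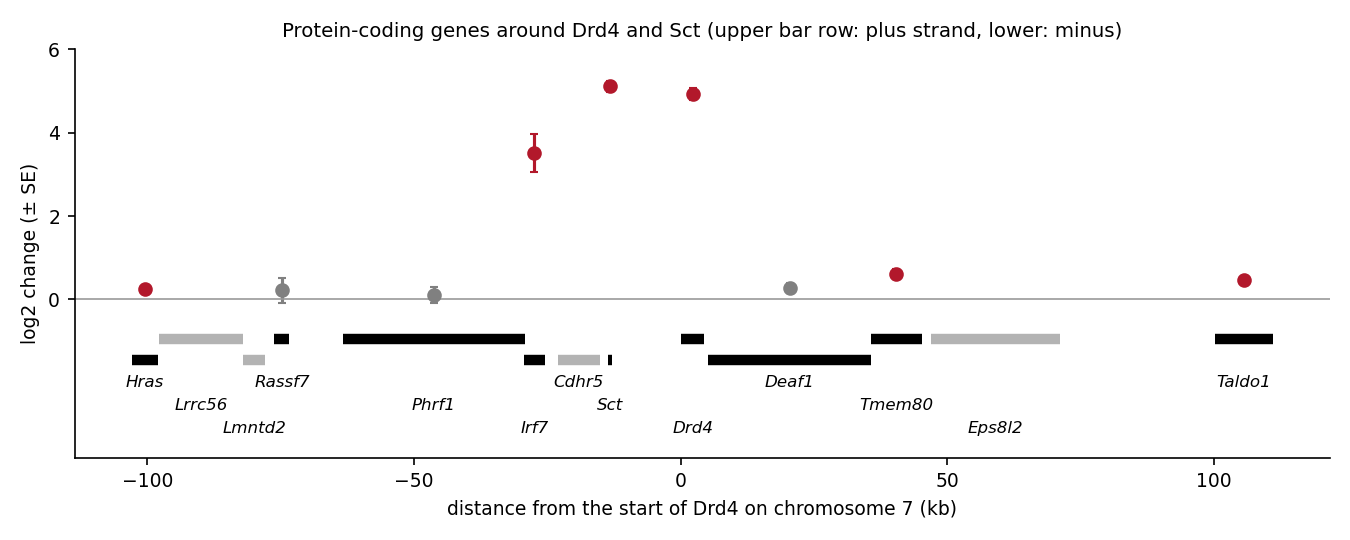
Log2 difference (AII gate over other Slc6a9 cells, bars SE) of protein-coding genes by distance in kb from the start of Drd4; red was called higher and grey not called, and bars below 0 show gene extent, light where too few counts were present to test. Sct at 5.11 and Drd4 at 4.93 stand far above Deaf1 at 0.27 and Phrf1 at 0.10.

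Genes of other transmitter systems also changed. Of 10 tested, 4 rose, 5 fell and 1 was not called. Th, tyrosine hydroxylase, the enzyme that starts dopamine synthesis, averaged 37.7 ± 10.8 CPM in AII cells and 1.68 ± 1.54 CPM in other Slc6a9 cells, with no overlap (log2 4.75 ± 0.30, adjusted p = 3.92e-16 by edgeR). Ddc and Slc6a3, the next enzyme and the dopamine transporter, did not pass the filter on low counts. Slc6a12, a betaine and GABA transporter, rose to 148 ± 18.3 CPM in AII cells, against 20.5 ± 5.99 CPM. Slc17a8, the vesicular glutamate transporter VGLUT3 of another glycinergic type, fell to 8.33 ± 14.4 CPM in AII cells, against 152 ± 95.6 CPM. Slc1a3, a glutamate transporter known from Müller glia, fell to 3.58 ± 3.71 CPM in AII cells, against 129 ± 20.7 CPM (log2 -5.0 ± 0.19, adjusted p = 2.19e-22 by edgeR). The Müller glia list, which contains Slc1a3, summed to 172 to 327 CPM in AII cells and 562 to 691 CPM in other Slc6a9 cells, and its part in this result was not tested. Of its other genes, Dkk3, Glul, Apoe and Clu had pooled levels of 27.6, 104, 58.8 and 20.6 CPM in AII cells and 203, 164, 89.5 and 42.4 CPM in other Slc6a9 cells. Rlbp1, Sox9 and Aqp4 had 11.7, 1.30 and 1.52 CPM in AII cells and 13.4, 1.06 and 2.6 CPM in other Slc6a9 cells.

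Among genes with a mean of at least 50 CPM in AII cells and the same direction in every library, the largest increases began with Sct, Fgf3 and Drd4. Fgf3, a fibroblast growth factor, ran through 56.1, 84.5 and 114 CPM in AII libraries, against 0, 2.08 and 9.94 CPM in other Slc6a9 cells (log2 4.98 ± 0.19, adjusted p = 1.37e-22 by edgeR). Fgf1, a fibroblast growth factor without a classical secretion signal, averaged 193 ± 19.5 CPM in AII cells and 12.2 ± 6.93 CPM in other Slc6a9 cells (log2 4.28 ± 0.16). Actc1, cardiac actin, averaged 111 ± 35.6 CPM in AII cells and 5.27 ± 4.26 CPM in other Slc6a9 cells, and Ptgis, prostacyclin synthase, 106 ± 16.8 and 5.58 ± 4.07 CPM. Tmem51 and the antisense gene Gm17135 completed the list at log2 4.25 and 4.22, the antisense gene with uncertain strand.

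The largest decreases included Ptprt, a receptor tyrosine phosphatase, with 2.84 ± 2.82 CPM in AII cells and 97.8 ± 12 CPM in other Slc6a9 cells. B3gat2, which makes the HNK-1 carbohydrate, had 2.22 ± 1.64 CPM in AII cells and 82.8 ± 39.2 CPM in other Slc6a9 cells. Igf1, insulin-like growth factor 1, had 4.81 ± 4.66 and 126 ± 99.97 CPM, and its difference was log2 -5.84 in batch 3 and -3.24 in batch 2. Hs3st6, Slc1a3, Lrrtm1, the long noncoding RNA Gm20383 and the vomeronasal receptor Vmn2r122, which belongs to a multigene family and is uncertain for that reason, were the others, at log2 -4.65 to -5.40. Of 77 named genes followed through 23 alternative settings, 72 kept their direction and their side of the threshold in every setting that tested them. The others were Dab1, Gphn, Tjp1, Panx2 and Sgsm3. Not every setting tested every gene: Gabrg1, Cacna1i and Scn9a were not tested in batch 3 alone.

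A second gate turned the question round, asking whether cells chosen by Drd4 carry the AII genes. It required at least 2 UMIs of Drd4 and 1 of Slc6a9 with no Gad1 or Gad2, and found 584 cells, against 3524 Slc6a9 cells without Drd4. The gates shared 432 cells, 45.1% of the AII gate and 74.0% of the Drd4 gate, so their results are not independent. Of 7946 genes tested, 39.5% were called, 19.4% upward and 20.1% downward, and 3.93% and 8.13% by at least 2-fold. Gjd2 ran through 807, 939.6 and 1079.7 CPM in Drd4 cells, against 60.8, 137 and 184 CPM in Slc6a9 cells without Drd4 (log2 3.05 ± 0.11, adjusted p = 1.14e-25 by edgeR). Prox1 ran through 353, 442 and 532 CPM, against 131, 209 and 249 CPM (log2 1.20 ± 0.07, adjusted p = 3.49e-19 by edgeR). Both were higher in 10 of 10 libraries and the sets did not overlap, and Calb1 and Nfia differed by log2 2.18 and 1.92.

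The share of AII cells among all cells of a library differed between batches under the gate as written. It was 3.11% ± 0.826 of the cells of a library over all 10 (SD), with 3.90% ± 0.370 in the 4 libraries of batch 3, 2.42% ± 0.433 in the 5 libraries of batch 2 and 3.37% in batch 1 (exact 95% binomial interval 2.32 to 4.72). Batches 3 and 2 did not overlap (exact two-sided permutation test, p = 0.0159, the smallest that 4 against 5 libraries allow). The other Slc6a9 cells, which share the Gad criterion, took 16.5% ± 0.797 of cells in batch 3 and 5.99% ± 0.874 in batch 2. Among cells with a UMI of Slc6a9 and none of Gad1 or Gad2, the order was the opposite. AII cells made up 14.9% ± 1.22 of these in batch 3 and 17.9% ± 2.46 in batch 2 (exact two-sided permutation test, p = 0.0952).

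The batches were close once the Gad criterion was dropped. Then 5.41% ± 0.334 of cells met the gate in batch 3 and 5.27% ± 0.496 in batch 2, a difference of 0.142 percentage points (exact two-sided permutation test, p = 0.635; added after seeing the data). Cells that met every criterion but carried a Gad UMI numbered 763 and made up 27.9% of the cells meeting the other criteria in batch 3 and 54.4% in batch 2. Their median depth was 9984 UMIs. Of these, 185 had exactly 1 Gad UMI, a median of 4940 UMIs and pooled levels near the AII gate (Drd4 273 CPM, Calb1 756 CPM, Meis2 62.9 CPM). The 578 with more Gad UMIs had 92.7 CPM Drd4, 231 CPM Calb1, and 664 CPM Meis2, a gene of GABAergic cells. No doublet caller was run, and the part of doublets and of free RNA in these cells was not tested.

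**Figure D5:**
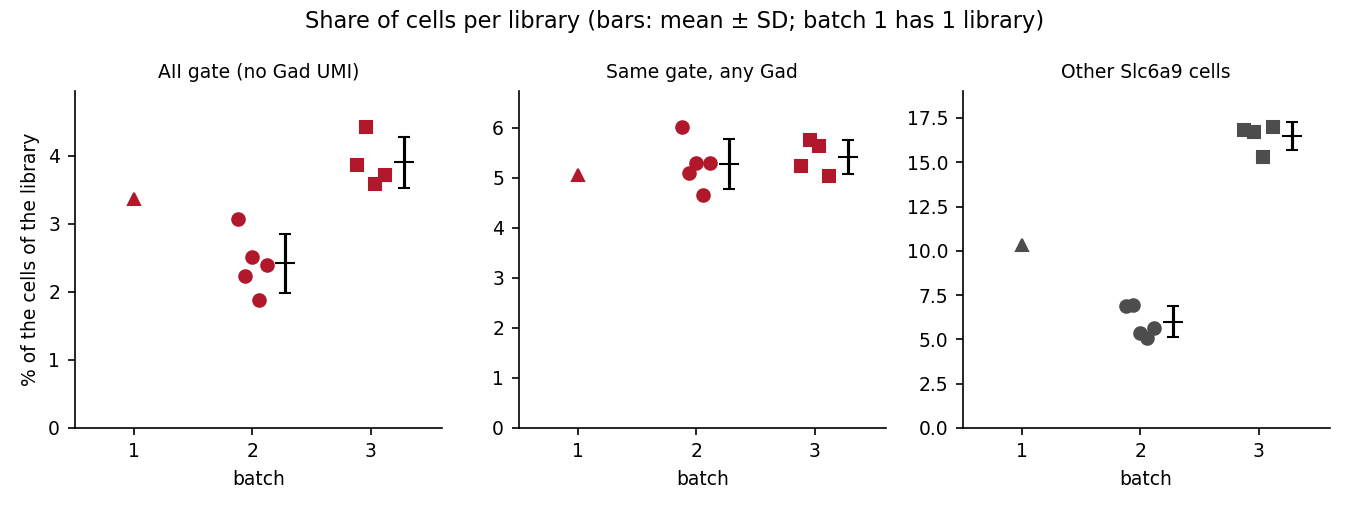
Share of cells per library, in percent, for the AII gate (left), the same gate with any Gad count (middle) and other Slc6a9 cells (right), by batch, with mean ± SD for batches 2 and 3. AII shares lie at 3.59 to 4.43% in batch 3 and 1.89 to 3.07% in batch 2, and overlap once the Gad criterion is dropped.

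Within AII cells, batch 3 and batch 2 differed in 9.13% of 6591 genes tested, 316 (4.79%) higher and 286 (4.34%) lower in batch 3, and 0.152% and 0.577% by at least 2-fold. In 9.1% of genes the libraries of the batches did not overlap. The fall count was 186 without library 8 and 189 without library 10. Xist, the RNA that coats the inactive X chromosome, averaged 1596 ± 174 CPM in batch 3 and 777 ± 76.1 CPM in batch 2 (log2 1.04 ± 0.06, adjusted p = 2.34e-22 by edgeR). Zfand4 stood at 117 ± 16.8 CPM in batch 3 and 7.20 ± 4.35 CPM in batch 2, and Sgsm3 at 84.1 ± 16.9 and 23.6 ± 5.72 CPM. Smim20 had no UMI in batch 3 and 72.4 ± 12.7 CPM in batch 2, at least 49.2-fold lower in batch 3 with a floor of 3 counts over the batch. l7Rn6 had 2 UMIs in batch 3 and 247 in batch 2, and Ltbp4 142 and 2. Syp, the vesicle protein synaptophysin, stood at 118 ± 9.0 CPM in batch 3 and 349 ± 52.7 CPM in batch 2. Other Slc6a9 cells differed between batches in the same direction, with 131 CPM in batch 3 and 9.47 CPM in batch 2 for Zfand4, 0.289 and 69.2 CPM for Smim20, and 129 and 395 CPM for Syp.

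Malat1 and Snhg11, both noncoding RNAs, fell in batch 3 by 0.46 and 0.43 on the log2 scale, and Eif1b, a translation initiation factor gene, rose by 0.47. Of the AII markers, Drd4 and Calb1 rose by 0.29 and 0.33 and Nfia fell by 0.42 (adjusted p = 0.0133, 1.14e-04 and 6.39e-04 by edgeR), while Dab1 was not called (adjusted p = 0.541). Of 13 genes on a list known to respond to dissociation, 9 were tested. Fos, Fosb, Jun, Junb and Egr1 fell in batch 3 and Jund, Ier2, Dusp1 and Hsp90aa1 were not called, Fosb to 7.67 ± 2.56 CPM, against 42.6 ± 17.0 CPM in batch 2. Batch and whatever else separates these libraries cannot be told apart.

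The difference between the sets itself depended on batch for 3.44% of 9071 genes (interaction in edgeR, 140 or 1.54% higher and 172 or 1.9% lower in batch 3, with 0.43% and 0.75% by at least 2-fold, and 91 higher without library 7). Cartpt averaged 67.1 ± 5.69 CPM in AII cells of batch 3 and 85.6 ± 24.1 CPM in those of batch 2, while other Slc6a9 cells stood at 1215 ± 85.7 CPM in batch 3 and 267 ± 45.8 CPM in batch 2. Cplx3 likewise stood at 4087 ± 109 CPM in batch 3 and 3638 ± 111 CPM in batch 2 in AII cells, and at 3452 ± 105 and 1325 ± 113 CPM in other Slc6a9 cells. In these genes the comparison cells moved between batches more than the AII cells did. Among the AII markers the difference between the sets was larger in batch 3 for Drd4 and Nfia, by 1.63 ± 0.28 and 1.09 ± 0.15 on the log2 scale, and smaller for Dab1 (-0.60 ± 0.12), with adjusted p of 4.28e-06, 4.08e-09 and 1.11e-04 by edgeR, while Calb1 was not called (0.19 ± 0.10, adjusted p = 0.453). In other Slc6a9 cells Drd4 stood at 6.88 CPM in batch 3 and 19.6 CPM in batch 2, and Nfia at 31.1 and 91.1 CPM. Eif1b moved in the AII cells instead, with 3368 ± 125 CPM in batch 3 and 2454 ± 77.8 CPM in batch 2 in AII cells, and 467 ± 31.6 and 497 ± 25.4 CPM in other Slc6a9 cells.

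Variation among AII cells of the same library was measured on thinned cells. After thinning to 2000 UMIs, 911 AII cells and 1842 genes remained, and the median ratio of variance to mean was 1.01, the value that counting noise alone gives being 1. Drd4, Dab1, Prox1 and Gjd2 had ratios of 1.01, 1.0, 0.997 and 0.961, of which the gate limits the last 2. Calb1 and Nfia lay higher, at 1.42 and 1.35. Among the 10 highest ratios were those of Malat1 (15.6), Xist (4.33), the mitochondrial genes mt-Co3, mt-Atp6 and mt-Co1 (2.57, 2.43 and 2.21), Pcp4 (2.37), Actb (2.33), Meg3 (2.29) and Car2 (2.06). With cells thinned to 3000 UMIs, 5 of the 10 ratios moved by more than their SD over libraries. The Pcp4 ratio ran from 0.905 to 6.13 over libraries. At the low counts of most genes, counting noise pulls the ratio toward 1, so a ratio near 1 can go with variation between cells. Pcp4, a calmodulin-binding peptide gene, averaged 300.5 ± 133 CPM in AII cells and 2299.7 ± 904 CPM in other Slc6a9 cells.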

How the data were processed

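The deposited file is a single table of whole-number UMI counts per gene and cell (27933 genes, of which 7109 had no count), which the authors made with Cell Ranger 2.1.0 against mm10, per the submitters' processing notes. How cells were filtered, whether doublets were removed and whether counting used strand is not given in the sources used here. No doublet caller was run. Each cell carries its library in its name, and libraries were grouped by the batch in the labels.

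Counts were summed per library and cell set. Sums were tested with edgeR 4.0.16 (TMM, filterByExpr, quasi-likelihood test, Benjamini-Hochberg adjustment over all genes tested, threshold 0.05) in R 4.3.3, with the library as a block because both sums of a library come from 1 cell suspension. The standard error is the log2 difference divided by the square root of F. The genes of a gate stayed in library sizes but were not tested. CPM are sums per 1000000 UMIs of the set, and depth per library set limits the precision of low genes. They are not scaled by TMM. Over 5839 genes, fitted log2 differences between the sets lay a median of 0.112 above those of plain CPM. Intervals and floors cover counting error only. Shares were compared with an exact permutation test, and cells were thinned with Python 3.11.15, numpy 2.4.6 and pandas 2.3.3 (scipy 1.17.1). The fits were tested on simulated data. Libraries of a batch were not 1 library deposited more than once: the mean chi-square per gene between pairs was 1.07 to 1.27 within a batch and 1.42 to 2.49 between batches. Counting noise alone gives about 1, so libraries of a batch differed little beyond it. P-values between batches rest on that small spread, with 1 batch on each side.

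Named genes were, from each list, up to 4 with the largest change among those called with the same direction in every library, all tested gap junction genes and the dopamine receptors, the 8 largest changes each way among genes of at least 50 CPM, the 5 smallest adjusted p each way for each batch comparison, and the 10 highest ratios of variance to mean. Some genes that this rule names are not reported here. Other genes named were chosen after their values were seen. The members, the lists and this rule were chosen with earlier results of these data known. Promoters were matched by gene symbol to RefSeq on GRCm38.p6, and gene positions are from GENCODE M21. Alternatives were other size factors, DESeq2 1.42.0, no filter on low counts, no library block, each library left out, each batch alone, other gates, other comparison cells and other depth limits.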

Additional observations from a re-analysis of the deposited data

Results flagged for a closer look

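Library 1, the single library of batch 1, stood apart from the other 9 in Dab1 of AII cells (341.7 CPM, median 230.3), in Rims3 and Crhr1 of AII cells (10.2 and 15.3 CPM, medians 2.41 and 2.91), and in Calb1, Lhx2 and Slc17a8 of other Slc6a9 cells (52.79, 82.63 and 397.1 CPM, medians 136, 34.6 and 131). It held 32 AII cells, the fewest. Library 2 stood apart in Pde1a, Chrna2 and Drd5 of AII cells (3.722, 3.722 and 14.89 CPM, each with a median of 0) and in Kcnh1 and Fgf3 of other Slc6a9 cells (38.33 and 9.937 CPM, medians 16.8 and 2.08).

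Library 3 stood apart in Chrna3 and Slc1a3 of AII cells (5.137 and 12.84 CPM, medians 1.65 and 2.98). In AII cells, library 5 was high in Grin2b (27.94 CPM, median 5.71), library 6 in Igf1 (16.22 CPM, median 3.88), library 8 in Slc6a12 (189.5 CPM, median 146) and library 9 in Rxfp3 (3.019 CPM, median 0). The gap between each of these values and the nearest library was wide beside the range of the 10 (Dixon's criterion). Of 166 such sets of 10 values, 17 met it. The rate of about 1 in 20 by chance holds for normally distributed values. Sets with a median of 0 are not of that kind, and 1 or a few UMIs can meet the criterion there. Rxfp3 had 2 UMIs and Chrna2 3 in all AII cells. The count of 17 therefore cannot be read against that rate.

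The difference between AII cells and other Slc6a9 cells itself differed between batch 3 and batch 2 (interaction in edgeR) for genes that the naming rule chose. The signed log2 difference, AII minus other, was higher in batch 3 by 0.5672 for Actb, 0.5514 for Eif1b, 0.8184 for Tmsb4x and 0.9416 for Stmn4. It was lower in batch 3, with interaction terms of -1.209 for Cplx3, -1.358 for Qdpr, -2.467 for Cartpt, -1.523 for Ptprf and -0.6569 for Ckb. For Qdpr, Ptprf and Actb the sets stood in opposite order in all libraries of the 2 batches, and for Stmn4 in the batch means. Qdpr, dihydropteridine reductase, stood at 498 CPM in AII cells and 875 CPM in other Slc6a9 cells in batch 3, and at 443 and 299 CPM in batch 2. Ptprf, a receptor tyrosine phosphatase, stood at 301 and 383 CPM in batch 3, and at 311 and 139 CPM in batch 2. Actb, beta-actin, stood at 1309 and 1150.5 CPM in batch 3, and at 1512 and 1969 CPM in batch 2.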

How the results depend on the processing

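Of the counts of genes called between AII cells and other Slc6a9 cells (2023 higher, 2024 lower), those at least 2-fold lower moved most: 862 became 1614 with no filter on low counts and 508 with no replicate block. The DESeq2 test called 1449 genes higher and 1784 lower, so the even split did not hold there. Without the block, in which the pairing of both sets of a library is given up, 1510 genes were higher and 1487 lower, and the Drd4 gate had 383 in place of 646 genes at least 2-fold lower. Leaving out each library gave 1836 to 1989 higher, 1904 to 2040 lower, 391 to 418 at least 2-fold higher and 831 to 896 at least 2-fold lower. Of the named genes, Sgsm3 alone reversed, to log2 -0.16 in batch 2 alone. Panx2 was called under 6 alternatives and Sgsm3 under 3. Differences moved by over 1.5 times for 23 of 77 named genes in batch 2 alone, 32 in batch 3 alone, 17 in cells of 3000 to 8000 UMIs and 6 with up to 1 Gad UMI allowed. These counts cover the genes tested in each setting.

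For batch 3 against batch 2, DESeq2 called 163 genes higher and 84 lower, 2 and 7 of them at least 2-fold, against 316, 286, 10 and 38 in edgeR. With no filter 17 were at least 2-fold higher and 66 lower, and in cells of 3000 to 8000 UMIs 22 were at least 2-fold lower. Leaving out each library gave 222 to 331 higher, 186 to 287 lower, 7 to 11 at least 2-fold higher and 26 to 53 lower. The interaction gave 91 to 140 higher, 124 to 176 lower, 29 to 41 at least 2-fold higher and 59 to 69 lower.

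The mean share of AII cells was 1.87% with the stricter gate (at least 3 UMIs of Gjd2 and 2 of Prox1), 5.34% in cells of 3000 to 8000 UMIs and 5.31% without the Gad criterion, and 2.96 to 3.24% with each library left out. The batch difference was 0.142 points without the Gad criterion and 1.31 to 1.65 with each library left out. Thinned to 3000 UMIs, 60.8% of AII cells had a UMI of Drd4 and 51.6% of Dab1. The median log2 difference over all genes was 0.00 with TMM and -0.03 with the size factors of DESeq2. Except where the alternative itself uses fewer genes, cells or libraries, the cause was not tested. Settings that allowed a Gad UMI or left out shared barcodes were chosen after seeing the data. Genes of a few CPM rest on few UMIs per library.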

Other observations

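Several abundant genes that stood on no list were higher in AII cells. The 13 mitochondrial genes took 4.57% ± 0.388 of the UMIs of AII cells and 2.89% ± 0.259 of those of other Slc6a9 cells (SD, n = 10 libraries each), all 13 were called higher by edgeR, and the median log2 difference was 0.77. The glycolytic genes Ldha, Aldoa, Pkm and Gapdh rose by 1.14, 0.89, 0.82 and 0.60 on the log2 scale, each in 10 of 10 libraries, Ldha to 1632 ± 191 CPM in AII cells, against 803 ± 105 CPM in other Slc6a9 cells. Car2, carbonic anhydrase 2, reached 7229 ± 802 CPM in AII cells, against 1024 ± 164 CPM (log2 2.94 ± 0.05, adjusted p = 1.51e-33 by edgeR). A share of mitochondrial RNA can also follow cell quality, and its part in these values was not tested.

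Receptor genes of the GDNF family differed in direction. Gfra1 averaged 122 ± 17.0 CPM in AII cells and 8.60 ± 5.21 CPM in other Slc6a9 cells, and Gfra2 196 ± 27.6 and 26.6 ± 9.44 CPM, without overlap in either, while Gfra4 fell by 0.50 on the log2 scale and Ret was not called. Mapk12, a p38 kinase, averaged 371 ± 76.2 CPM in AII cells and 27.6 ± 13.3 CPM in other Slc6a9 cells, and Pde8b, a cAMP phosphodiesterase, 157 ± 20.6 and 12.7 ± 4.22 CPM. Pde8b thus rose where Pde1a, Pde1c and Pde4b fell. Among genes that fell, Ly6h, a modulator of nicotinic receptors, averaged 61.5 ± 29.8 CPM in AII cells and 984 ± 43.4 CPM in other Slc6a9 cells, and Camk2n1, an inhibitor of CaM kinase II, 99.2 ± 24.7 and 1009 ± 159 CPM. All these genes were chosen after their values were seen.

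Among the 957 AII cells, 387 had a UMI of Xist and none of the Y-linked genes, 288 the reverse, 48 both and 234 neither. Cells with Xist made up 51.2 to 60.9% of AII cells in the 4 libraries of batch 3 and 32.1 to 39.2% in the 5 libraries of batch 2.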
